A study of Mus musculus with 6 samples.

Results

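Ribosomal protein pseudogenes are annotated copies of ribosomal protein genes, and 102 of the 55536 genes in a bulk RNA-seq count table of mouse basal keratinocytes were taken as such. A member was a gene whose annotated type is a pseudogene, whose symbol starts with Rpl or Rps and a digit, and whose counts summed to at least 30 over the 6 libraries. The table holds 309 genes with such names, of which 86 had no count and 121 had fewer than 30. The members were thus chosen by their summed counts over both groups, a value that does not set the groups against each other. For 77 members the counts reached 30 in each group alone, 12 reached it only in control libraries, 4 only in knockout libraries, and 9 only over all 6 libraries. The least counted member, Rpl10a-ps4, had 30 counts, and Rpl7a-ps10 with 29 and Rpl19-ps3 with 28 were just outside.

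The study asked what epidermal cells need the histone mark H3K9me3 for, and sorted Epcam+α6+ basal cells from the dorsal skin of mouse embryos at E16.5 for rRNA-depleted total RNA sequencing. Both groups carried Suv39h1 f/f, Suv39h2-/- and Setdb1 f/f alleles on a mixed background, and both were exposed to tamoxifen given to the pregnant mother. The 3 control (Ctrl) embryos had no Cre (K14CreERT2-), and the 3 triple knockout (TKO) embryos had K14CreERT2+, a tamoxifen-inducible recombinase driven in basal keratinocytes. All 6 libraries were thus labelled as null for Suv39h2, and the litters used were described as mosaic, so that TKO samples may hold cells that kept the mark. Total counts were between 102159175 and 136515436 per library. The labels do not say that the replicates came from separate litters, and p-values measure the spread between these libraries.

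Suv39h1, Suv39h2 and Setdb1 are methyltransferases that place H3K9 methylation, a mark of silent chromatin. Setdb1 was at 125.5, 117.9 and 121.1 CPM (counts scaled for library size) in Ctrl and at 95.3, 62.3 and 74.9 in TKO. Every TKO library was below every Ctrl library (log2 fold change -0.65, adjusted p = 0.286, edgeR's quasi-likelihood test). DESeq2 gave Setdb1 a log2 fold change of -0.653 with an adjusted p of 0.0449. Suv39h1 was at 88.7, 78.5 and 84.0 CPM against 75.6, 68.9 and 89.4, and its groups overlapped. Suv39h2, deleted in both groups by the labels, still had 15.9, 17.1 and 15.6 CPM in Ctrl and 18.9, 16.0 and 17.5 in TKO, overlapping levels. Counts over a whole gene include transcripts that lack only the deleted exons, so these levels check the labels weakly. The sorted cells had the keratins of basal cells: Krt14 was between 4203 and 6370 CPM and Krt5 between 6994 and 12320 in the 6 libraries. Keratins of suprabasal cells were also abundant, with Krt1 between 6100 and 10070 CPM and Krt10 between 5694 and 9475.

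Processed pseudogenes arise when an mRNA is copied back into DNA and inserted elsewhere in the genome. They lack introns and bring no promoter of their own, and ribosomal protein mRNAs, which are abundant and short, have left many such copies in mammalian genomes. Most decay, but a copy that is recent or under constraint can keep a sequence close to that of the parent gene, and short reads from the copy and the parent are then hard to assign.

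Of the 102 members, 79 were annotated as processed pseudogenes and 23 as transcribed processed pseudogenes, and 55 were copies of large-subunit (Rpl) and 47 of small-subunit (Rps) genes. They came from 49 parent genes and lay on 20 chromosomes. Rps12 had 6 copies among the members, Rpl17 and Rps2 had 5 each, and Rpl31, Rps15a and Rps13 had 4 each.

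Rps3a2 and Rps3a3 were the only members called as changed in TKO, and both are copies of Rps3a1, which encodes a protein of the small ribosomal subunit. Rps3a3 lies at chr13:108807137-108807931 on the plus strand (GRCm39), inside an intron of Pde4d on the same strand, and is annotated as a transcribed processed pseudogene. Rps3a2 lies at chr14:88360453-88361244 on the minus strand, opposite an intron of the gene model Gm63272, and is annotated as a processed pseudogene. The parent Rps3a1 spans chr3:86045244-86050009 on the minus strand. The coding region of each of the 3 was 795 bases long, started with ATG and ran through 264 codons to a stop codon, which for Rps3a2 lies in the 3 bases just after the annotated end. Neither copy therefore had a frameshift or an early stop in the reference genome.

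A stretch of 120 bases of the coding sequence (positions 549 to 668, counted from 1 at the A of the Rps3a1 start codon) shows how close the copies are, since this is the sequence by which reads have to be assigned. Capitals mark bases that differ from Rps3a1. In the genome the stretch lies at chr14:88360577-88360696 for Rps3a2 and at chr13:108807685-108807804 for Rps3a3.
Rps3a1: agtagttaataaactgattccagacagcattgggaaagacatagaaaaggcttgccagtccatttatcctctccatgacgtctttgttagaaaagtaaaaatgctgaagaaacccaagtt
Rps3a2: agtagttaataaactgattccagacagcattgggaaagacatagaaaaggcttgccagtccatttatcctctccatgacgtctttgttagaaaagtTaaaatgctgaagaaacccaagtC
Rps3a3: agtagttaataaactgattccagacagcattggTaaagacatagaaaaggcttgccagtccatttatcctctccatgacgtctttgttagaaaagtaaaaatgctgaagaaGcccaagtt

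Over the whole coding region Rps3a2 differed from Rps3a1 by the 4 substitutions T216C, T534C, A645T and T668C, of which 3 keep the encoded amino acid. Rps3a3 differed by 9, which are T216C, T260C, C363T, A427T, T534C, G582T, A660G, C762T and G792A, and 7 of them keep the amino acid. The copies shared T216C and T534C and differed from each other at 9 positions. Upstream of the start codon they were unlike. An alignment of 250 bases with gaps allowed, each gap base counted as a difference, gave an identity of only 54.4%. The value that unrelated sequences reach by this measure was not computed.

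**Figure D1:**
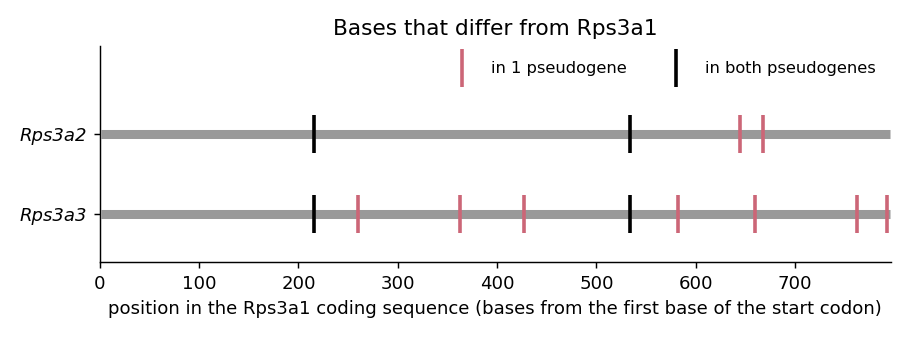
Positions at which the coding regions of Rps3a2 and Rps3a3 differ from the Rps3a1 coding sequence, in bases from the first base of the start codon. Vertical marks are single-base differences, 4 in Rps3a2 and 9 in Rps3a3, with the 2 that both copies share in black, and long stretches of both copies hold no mark that tells them from the parent.

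As a measure of how far a read can be placed, each pseudogene was read in windows of 100 bases. Of the 696 windows of Rps3a3, 18.39% occurred without a mismatch in an Rps3a1 transcript, 31.32% in Rps3a2, and 66.95% nowhere else in the genome. For Rps3a2 the share found in Rps3a1 transcripts was 53.39% and the share found nowhere else 21.36%. A read from Rps3a3 thus had more distinguishing sequence than a read from Rps3a2.

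Rps3a3 had 48, 69 and 32 counts in the Ctrl libraries and 11604, 12149 and 10189 in the TKO libraries. In scaled units this was 0.485, 0.534 and 0.297 CPM in Ctrl and 98.6, 110.0 and 83.8 CPM in TKO. The groups were far apart, with no Ctrl library reaching 1 CPM. The ratio of the group means was 222.3, and the log2 fold change was 7.79 ± 0.26 (SE) with an adjusted p of 1.36e-06 in edgeR's quasi-likelihood test, the smallest p of all 20622 genes tested.

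Rps3a2 was counted in Ctrl libraries as well, with 419, 649 and 454 counts, and had 5053, 5835 and 4708 counts in TKO. Its levels were 4.23, 5.02 and 4.21 CPM in Ctrl and 42.9, 52.8 and 38.7 CPM in TKO. Again no TKO library was near the Ctrl libraries. Its mean rose 9.99-fold (log2 fold change 3.32 ± 0.18, adjusted p = 7.41e-05), the next smallest p of the table after that of Rps3a3.

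Rps3a1, the parent, went the other way in every library, although it was not called. It was at 1232, 1495 and 1140 CPM in Ctrl and at 624.7, 698.9 and 653.8 CPM in TKO. The groups did not overlap, and the spread within TKO (SD 37.4 CPM, n = 3) was smaller than that within Ctrl (SD 183.9 CPM, n = 3). The TKO mean was 0.511 of the Ctrl mean (log2 fold change -0.97 ± 0.16, unadjusted p = 0.000112, adjusted p = 0.0722 with edgeR), which was the smallest p among all genes with a lower level in TKO and just outside both thresholds. DESeq2 gave the same size (-0.97) with an adjusted p of 1.56e-06, and it too fell short of the fold threshold of 1. Without the filter on low counts, edgeR gave -1.004 with an adjusted p of 3.78e-07 and called it.

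**Figure D2:**
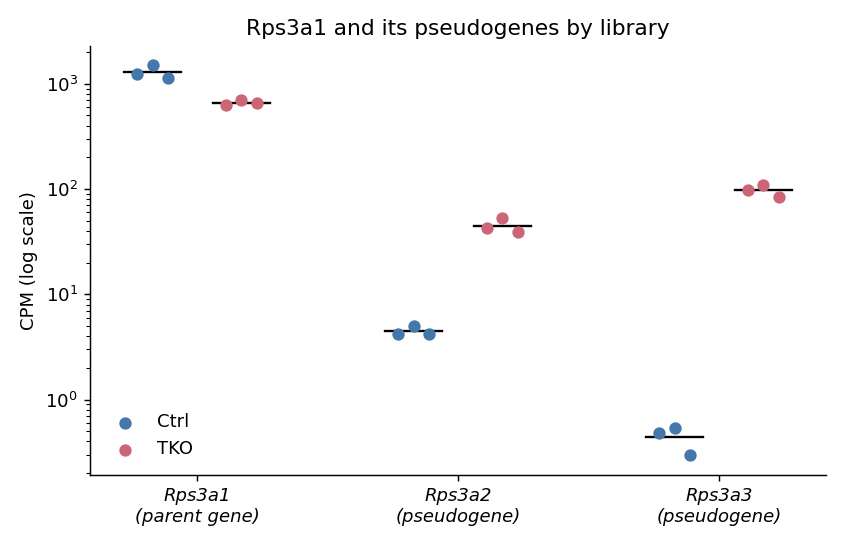
Levels of the parent Rps3a1 and the pseudogenes Rps3a2 and Rps3a3 in each of 3 Ctrl (blue) and 3 TKO (red) libraries, in CPM on a log scale, with bars at the group means. Both pseudogenes stood higher in all TKO libraries and the parent lower, and in TKO the pseudogene Rps3a3 (mean 97.5 CPM) was above Rps3a2 (mean 44.8 CPM), while in Ctrl the order was the reverse.

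The order of the copies changed between the groups. Rps3a2 had a mean level of 4.49 ± 0.46 CPM (SD, n = 3) in Ctrl and 44.8 ± 7.25 CPM in TKO, and Rps3a3 one of 0.439 ± 0.13 and 97.5 ± 13.1 CPM. Per kilobase of transcript, Rps3a2 was above Rps3a3 in Ctrl (5.67 against 0.552 CPM per kb) and below it in TKO (56.6 against 122.6), with no overlap between the copies within a group, and Rps3a1 was at 1319 and 674.6 CPM per kb. As a share of the parent's counts, Rps3a3 went from 0.0393%, 0.0357% and 0.0260% in Ctrl to 15.8%, 15.7% and 12.8% in TKO, and Rps3a2 from 0.343%, 0.336% and 0.369% to 6.87%, 7.56% and 5.92%. The log2 ratio to the parent rose by 8.78 for Rps3a3 and by 4.27 for Rps3a2, and the exact permutation test over the 6 libraries gave p = 0.10 for each, the smallest that 3 against 3 libraries can give. Since the parent's lower level adds to these ratios, they exceed the changes of the copies themselves.

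Because reads can pass between the copies and the parent, the counts of each parent and all its named pseudogenes were also summed. The summed Rps3a family was at 1237, 1500 and 1145 CPM in Ctrl and at 766.2, 861.7 and 776.3 in TKO. It was therefore lower in every TKO library (log2 fold change -0.69 ± 0.16, unadjusted p = 0.00139, adjusted p = 0.22 with edgeR) and not called. The 2 copies together gained 137.4 CPM between the group means, while Rps3a1 changed by -629.9 CPM. What part of the change of each of the 3 rests on reads placed on another copy was not tested.

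The genome holds 14 stretches outside Rps3a1 that align to at least 80% of the Rps3a1 coding sequence, Rps3a2 and Rps3a3 among them, and 12 of these have a place in the count table. Only 6 had 30 or more counts. Gm13408, with 98.25% identity to Rps3a1, had 97, 57 and 80 counts in Ctrl and 140, 99 and 52 in TKO, so that the groups overlapped (log2 fold change 0.22). Gm7600, with 98.23% identity, had 25, 41 and 14 counts in Ctrl and 12, 16 and 9 in TKO (log2 fold change -1.12, adjusted p = 1.0). Gm5586 (98.49% identity) had between 3 and 12 counts per library and Gm8960 (96.64%) between 1 and 11. Gm13408 and Gm7600 were not called and the last 2 were below the filter on low counts. By the same alignment Rps3a3 had 98.87% identity.

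None of the tested genes next to either copy was called. Pde4d, a phosphodiesterase gene whose intron holds Rps3a3 on the same strand, was at 21.4, 22.2 and 27.3 CPM in Ctrl and 25.9, 23.9 and 26.2 in TKO (log2 fold change 0.10, adjusted p = 1.0 with edgeR). The nearest tested gene before Rps3a3, Depdc1b at a distance of 262821 bases, had a log2 fold change of 0.14. On the far side Rab3c, at 1382790 bases, was low and lower in TKO (log2 fold change -2.38, adjusted p = 0.699). Around Rps3a2, Tdrd3 (577500 bases away) had a log2 fold change of -0.12 and Pcdh20 (333591 bases away) one of 0.04.

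Across the family of 102, levels were very uneven. The members held 332506 counts in all, of which Rpl3-ps1 alone held 61.4% and the 10 most counted members 90.4%. The median member had 204 counts over the 6 libraries and 31 had fewer than 100. In Ctrl the median member had 0.0639% of the scaled counts of its parent, 8 members had 1% or more, and none had a higher mean than its parent, without a correction for length.

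Most members were close copies. The median length was 474.5 bases (151 to 1214), and the median identity to the parent mRNA was 98.75%, with 11 members identical to it over their whole length. In the median member 37.38% of 100-base windows occurred exactly in a transcript of the parent, 60.41% of 50-base and 18.43% of 150-base windows. For 13 members all 100-base windows did so and for 12 none. For 15 members no window was their own, that is, every one also occurred elsewhere in the genome or in the parent. Those 15 had a median of 422 counts, and the 87 others had 166.

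The filter on low counts left 87 of the 102 members, and the other 15 had between 30 and 67 counts in all. Of the 87, 2 were called higher in TKO (Rps3a2 and Rps3a3) and 0 lower by edgeR's quasi-likelihood test, where 0.131% of all tested genes were called higher and 0% lower. No other member had an unadjusted p under 0.05; the next smallest was 0.0625, for Rps13-ps4. DESeq2 called the same number, 2 higher and 0 lower, against 0.936% and 0.102% of all genes. With every gene of at least 30 counts in the fit, all 102 members were tested, and again 2 were higher and 0 lower (0.134% of 23115 genes higher). With the replicate number as a block, 2 were higher and 0 lower, against 0.213% and 0.00485% of all genes.

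**Figure D3:**
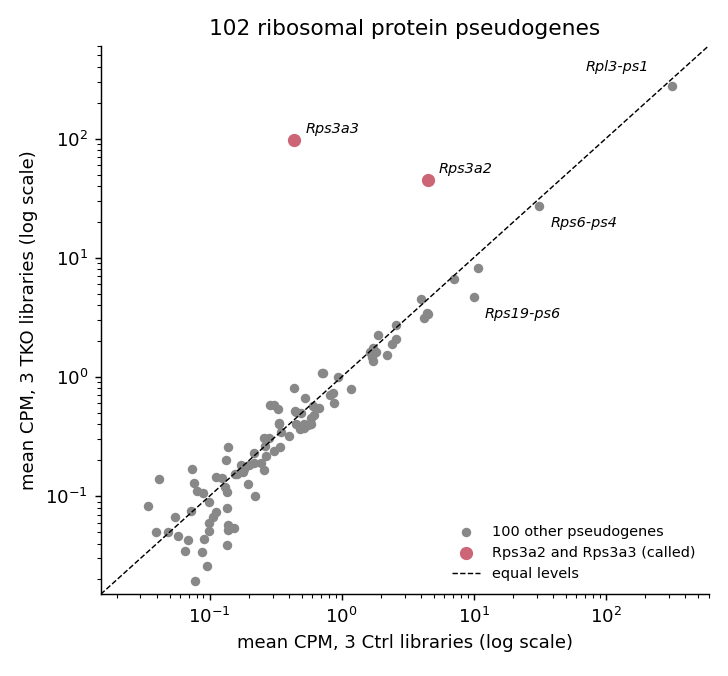
Mean CPM of each of the 102 pseudogenes in 3 TKO libraries against that in 3 Ctrl libraries, both on log scales, with the dashed line at equal levels. Rps3a3 and Rps3a2 (red) lie far above the line, and the other 100 lie along it, with more scatter below 1 CPM, where a member had few counts.

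Leaving those 2 aside, 77 of 85 tested members had a log2 fold change within 1 of zero, and of the other 8, 2 were higher and 6 lower in TKO. Over all 87 the median was -0.17 (31 higher, 56 lower), beside 0.01 for all tested genes. With single libraries left out, this median stayed negative but varied widely in size. For 5 members all TKO libraries exceeded all Ctrl libraries (4.9% of 102, against 6.16% of all genes with at least 30 counts), and for 9 all were below (8.82%, against 5.19%). The first share stood below that of the whole table and the second above it, and neither difference was tested.

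Rpl3-ps1, at chrX:13068810-13070019 and on the plus strand, is a copy of Rpl3, whose protein lies near the centre where peptide bonds form. It was at 351.8, 334.3 and 267.3 CPM in Ctrl and at 234.7, 251.0 and 345.8 in TKO, and the groups overlapped (log2 fold change -0.20 ± 0.18, adjusted p = 1.0 with edgeR). Its counts were between 39.3% and 59.3% of those of Rpl3 in the 6 libraries. It differed from the Rpl3 mRNA at 2 positions, and 85.78% of its windows occurred in an Rpl3 transcript, so that few reads could tell the copy from the parent.

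Rps6-ps4 is identical to the mRNA of Rps6, a protein known as the target of the S6 kinases, over its whole length, and none of its windows was its own. It was at 34.5, 30.5 and 29.4 CPM in Ctrl and at 20.6, 22.7 and 38.8 in TKO. TKO replicate 3 had the highest value of the 6 libraries and the other TKO libraries the lowest ones. Rps6 itself had 974.4, 973.3 and 796.4 CPM against 667.8, 740.1 and 927.7, the same order of TKO libraries.

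Rpl38-ps2, a perfect copy of Rpl38, was lower in every TKO library. It had 11.8, 11.3 and 9.21 CPM in Ctrl and 8.35, 9.20 and 7.20 in TKO, a gap smaller than the spread within the groups (log2 fold change -0.39 ± 0.20, adjusted p = 0.907 with edgeR). Rps16-ps2 (log2 fold change -0.42) and Rpl10a-ps1 (-0.36), also perfect copies, were not called either. Among the 13 members with all windows in the parent, 12 were tested, with 3 higher and 9 lower and a median of -0.31.

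Rps19-ps6 varied widely from library to library. It is a copy of Rps19, the gene best known from Diamond-Blackfan anaemia, within an intron of Tecpr2 on the same strand. It was at 2.84, 17.6 and 9.80 CPM in Ctrl and at 1.98, 2.06 and 10.1 in TKO, with high and low libraries in both groups (log2 fold change -1.10 ± 0.78, adjusted p = 1.0 with edgeR). Rps19 itself stayed between 333.9 and 510.8 CPM, so the swings of the copy were not those of the parent. Ctrl replicate 1 and TKO replicates 1 and 2 were the low libraries, from 2 female and 1 male embryo by the labels, and the 3 high libraries were from male embryos. With sex in the fit Rps19-ps6 was not called, and its relation to sex was not tested.

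Rps10-ps2 stood close to its parent, whose own counts were low. Rps10 had between 2.42 and 5.37 CPM, and in Ctrl no other parent had fewer scaled counts, the next being Rpl36a with a mean of 86.0 CPM. Rps10-ps2 had 4.09, 5.03 and 2.94 CPM in Ctrl and 3.17, 3.45 and 7.03 in TKO, or between 54.8% and 208.3% of the parent's counts. Rps26-ps1, a copy of Rps26 that overlaps an exon of the gene model Gm65298, had a log2 fold change of -0.10.

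**Figure D4:**
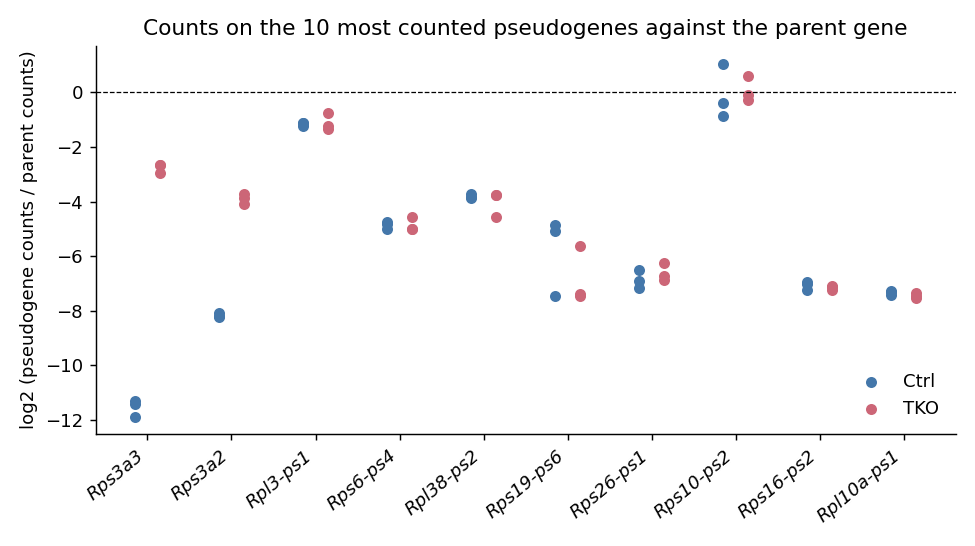
Log2 ratio of pseudogene counts to parent counts (0.5 added to each) in each Ctrl (blue) and TKO (red) library for Rps3a3, Rps3a2 and the 8 other most counted pseudogenes. The groups are separated by a wide gap for Rps3a3 and Rps3a2 only, and for Rps10-ps2 the ratio lies around 0, where copy and parent have equal counts.

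After Rps3a3 and Rps3a2, the members with the highest fitted fold changes were Rpl27-ps1 (log2 fold change 1.195 ± 0.855), Rpl23a-ps2 (1.02 ± 0.61) and Rpl36a-ps3 (0.91 ± 0.80), and none was called. Rpl27-ps1 had 7, 6 and 11 counts in Ctrl and 24, 15 and 20 in TKO. Rpl23a-ps2, inside an intron of Rabep1, had 42, 15 and 34 counts in Ctrl and 99, 48 and 55 in TKO. The groups of both did not overlap, but their counts were few. Rpl36a-ps3 owed its value to TKO replicate 3, with 147 counts where the other libraries had between 9 and 53, and its log2 fold change was -0.22 without that library. Rps13-ps4, named after its values were seen, had 50, 57 and 38 counts in Ctrl and 106, 85 and 90 in TKO (log2 fold change 0.89 ± 0.42, adjusted p = 0.864 with edgeR).

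At the low end were Rps2-ps13 (log2 fold change -1.48), Rpl5-ps2 (-1.41), Rpl13-ps6 (-1.25) and Rpl36-ps2 (-1.11), each with few counts and an adjusted p of 1.0 in edgeR's test. Rps2-ps13 had 22, 20 and 9 counts in Ctrl and 11, 4 and 4 in TKO, and its groups overlapped. Rpl13-ps6 had 16, 17 and 13 counts in Ctrl and 6, 8 and 6 in TKO.

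In families with several copies, the fitted fold changes of the copies were spread, with wide standard errors. Whether copies of a family changed by different amounts was not tested. Of the 4 tested copies of Rpl31, all were lower, between -0.32 and -0.12 on the log2 scale. The 5 tested copies of Rps2, a small-subunit protein, were spread from -1.48 to 0.74, with 4 lower, and the 4 tested copies of Rps12 from -0.47 to 0.17. All 3 tested copies of Rpl36a were higher, between 0.23 and 0.91, while Rpl36a had a log2 fold change of -0.47. The highest of these values, that of Rpl36a-ps3, turned negative without TKO replicate 3. No member of these 4 families was called.

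The parents formed a tighter group than their copies. All 49 had a lower fitted level in TKO, with a median log2 fold change of -0.31 and, apart from Rps3a1, a range from -0.48 to -0.09. None was called, and 4 had an unadjusted p under 0.05 (8.16% of 49, beside 2.02% of all genes that were lower at that p): Rps3a1, Rpl10, Rpl13 and Rpl9. Rpl13, for example, was at 1223, 1256 and 869.8 CPM in Ctrl and at 810.2, 853.3 and 762.0 in TKO. Within groups, the median coefficient of variation was 19.5% in Ctrl and 14.0% in TKO for the parents, against 37.7% and 36.5% for the pseudogenes, which had far fewer counts.

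Summed over the 49 parents, the levels were 32090, 34220 and 24400 CPM in Ctrl and 22380, 24010 and 26600 in TKO, so that TKO replicate 3 was above Ctrl replicate 3 and the groups overlapped.

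Of 90 ribosomal protein genes tested, the 49 parents included, 84 had a lower and 6 a higher fitted level with a median of -0.30, and none was called. Of the 41 that are not parents, 35 were lower. The list was drawn by symbol and also took in 9 genes of S6 kinases and Rps19bp1, which are left out of these counts. The counts keep genes annotated as protein-coding whose symbols are those of copies or relatives. These include Rpl10-ps3 (log2 fold change 0.224) and Rps23rg1 (0.115) among the 6 higher, and Rpl9-ps6 (-0.141) among the lower. Rps4l was the only ribosomal protein gene higher at an unadjusted p under 0.05, with 27.99, 33.0 and 21.5 CPM in Ctrl and 44.5, 69.9 and 46.7 in TKO (log2 fold change 0.97, adjusted p = 0.214 with edgeR). Rps14 was the lowest after Rps3a1 among the 7 that were lower at that p (log2 fold change -0.63, adjusted p = 0.407). Genes of ribosome biogenesis, which process rRNA and assemble the subunits, were split evenly, with 20 of 40 higher and 20 lower and a median of -0.003, and none was called.

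**Figure D5:**
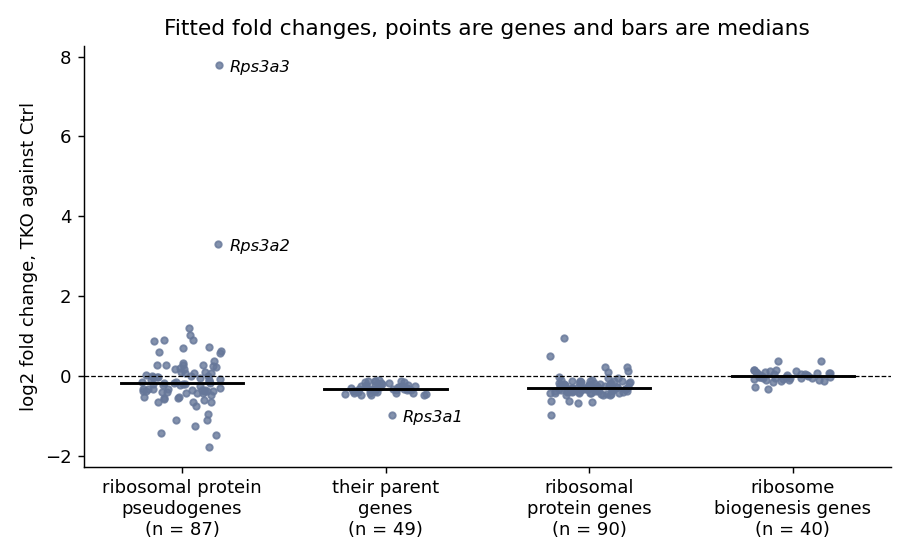
Log2 fold changes of TKO against Ctrl fitted with edgeR, one point per tested gene and a bar at the median, for 87 ribosomal protein pseudogenes, their 49 parent genes, 90 ribosomal protein genes (parents included) and 40 ribosome biogenesis genes. The medians are -0.17, -0.31, -0.30 and -0.003, and Rps3a3 and Rps3a2 stand alone at 7.79 and 3.32.

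The fold changes of copies and parents were only weakly related. Over the 85 tested members other than Rps3a2 and Rps3a3, Pearson's r between both log2 fold changes was -0.15. It was 0.23 over the 36 members with at least 50% of windows in the parent and -0.32 over the 49 with fewer. These are descriptions across genes, which share libraries and, in part, parents and reads. The median difference between a copy and its parent was 0.09 on the log2 scale, and it was -0.03 for members with all windows in the parent and 0.73 for members with none. Of the 9 tested members with no window in the parent, 6 were higher and 3 lower.

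By annotated type, the 19 tested transcribed processed pseudogenes had a median log2 fold change of 0.17 (11 higher, 8 lower) and the 68 processed pseudogenes one of -0.21 (20 higher, 48 lower). Members within an exon or intron of another gene on the same strand had a median of -0.01 (33 tested), and the 54 others one of -0.21. In all, 16 members lay in an exon and 23 in an intron of another gene on the same strand, and 35 overlapped no other gene. Reads of an overlapping gene that were counted on a pseudogene cannot be told apart from its own.

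Other pseudogenes of the table give a measure of how usual such changes were. Of 987 other processed pseudogenes tested, 0 were called by edgeR and 6 were called higher by DESeq2, and the median log2 fold change was -0.02. At an unadjusted p under 0.05, 25 of them (2.53%) were higher and 7 (0.709%) lower in edgeR's test, where 4.06% of all 20622 tested genes were higher and 2.02% lower. Of 174 other pseudogenes that are not processed copies, 3 were called higher and the median was 0.17. Among genes matched to the annotation, Rps3a2 and Rps3a3 were thus the only processed pseudogenes called by edgeR. The 4059 genes without a match have no type here. The difference between ribosomal protein pseudogenes and other processed pseudogenes was not tested.

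As a share of all counts, the members together took 0.0466%, 0.0452% and 0.0385% of the Ctrl libraries and 0.0473%, 0.0512% and 0.0611% of the TKO libraries. The lowest TKO value was above the highest Ctrl value (exact permutation test, two-sided, p = 0.10, the smallest possible). Without Rps3a2 and Rps3a3 the mean share was 0.0429% ± 0.0043 (SD, n = 3) in Ctrl and 0.0387% ± 0.0085 in TKO, the groups overlapped, and the exact p was 0.50. The higher share in TKO thus rested on these 2 copies.

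Genes of other cell types moved with the groups in part. Skeletal muscle markers (Acta1, Myh3, Ckm and Ttn) summed to 2.64, 9.06 and 5.77 CPM in Ctrl and to 31.3, 29.1 and 30.1 in TKO, of which Ttn had the most counts. Myh3 was called higher by edgeR, and DESeq2 called Acta1 and Ttn as well. Ckm (log2 fold change 0.45) was called by neither, and the groups of Ckm and of Acta1 overlapped. Merkel cell markers (Atoh1, Krt20 and Isl1) summed to 1.66, 1.85 and 2.46 CPM in Ctrl and 0.280, 0.109 and 0.650 in TKO, Krt20 being at 0 in TKO replicates 1 and 2, and Isl1 was called lower by DESeq2 (adjusted p = 0.0136) but not by edgeR. The summed basal markers overlapped between the groups, with sums between 16020 and 21610 CPM in Ctrl and between 14120 and 17660 in TKO, although Itgb4 alone was higher in every TKO library (479.5, 619.6 and 516.1 CPM against 463.9, 427.6 and 479.1). The 4 matched suprabasal markers summed to 18050, 17650 and 19550 CPM against 15780, 11800 and 12400, lower in every TKO library. Nearly all of this sum was Krt1 and Krt10. Ivl (log2 fold change -0.053) and Flg (0.243) had low levels, and their groups overlapped. Fibroblast, melanocyte, immune, endothelial and erythroid markers had 0 of 16 genes called, and their summed levels overlapped. The part of these cell types in the levels of the pseudogenes was not tested, and in bulk samples fewer cells of a type and less RNA per cell cannot be told apart.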

How the data were processed

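Basal keratinocytes of 3 Ctrl and 3 TKO embryos were profiled by bulk RNA-seq. According to the study's methods and the labels, the authors depleted rRNA, trimmed paired-end reads with fastp, mapped them with STAR and deposited a table of unnormalized read counts for Ensembl genes. The build is given as GRCm38 in the labels and GRCm39 in the methods, and the counting program, its annotation, its strand setting and its treatment of reads with several matches are not given in the sources used here. Gene types, symbols, positions and sequences came from GENCODE vM39 on GRCm39, which matched 51477 of 55536 genes; the matched genes took 86.4% to 94.1% of a library's counts.

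Counts were fitted with edgeR 4.0.16 (R 4.3.3): filterByExpr (min.count 10, min.total.count 15), TMM scaling, glmQLFit (robust) and glmQLFTest over 20622 genes. A gene was called where the Benjamini-Hochberg adjusted p was under 0.05 and the log2 fold change beyond 1 in either direction. CPM values are the deposited counts adjusted for TMM library size, and 3 counts correspond to between 0.0232 and 0.0303 CPM. On data simulated from the mean counts of these libraries, 98% of genes changed by 1.5 and 100% of genes changed by 3 on the log2 scale were called, with 3 false calls among 20264 genes. The simulation gave every gene the same spread between libraries, smaller than the common spread of 36.5% (biological coefficient of variation) fitted to these libraries. The shares therefore do not say how often such changes would be called in the real counts. DESeq2 1.42.0 was an alternative. Identity to the parent was computed with edlib 1.3.9.post1 against its canonical mRNA, and windows in the genome with blastn 2.17.0. A parent is the gene whose symbol remains after the pseudogene suffix is removed.

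Samples were grouped by their titles. The replicate numbers were taken to pair the samples only in the fit with the replicate number as a block. The main fit and the exact permutation tests left this pairing out. Deviations of same-numbered libraries from their group means correlated at 0.188, 0.187 and 0.272, and those of other pairs between -0.243 and 0.0191. The labels do not say what a number shares. Members named are those called, the 10 most counted, and the 5 tested ones with the highest and the 5 with the lowest fold change, with their parents, the targeted genes and the nearest tested neighbours of called members; others are said to be named after their values were seen or stand in a list. The members and lists were chosen with earlier results of these data known. The floor of 3 counts covers counting error only. A single member among the 5 lowest is not reported here. The suprabasal marker Lor did not match the table.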

Additional observations from a re-analysis of the deposited data

How the results depend on the processing

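Rps3a2 and Rps3a3 were called higher and no member lower with DESeq2, with RLE size factors, with either other filter on low counts, with sex as a factor, without robust estimation, without a fold threshold, among members of at least 100 counts, and with each library left out (2 calls in every fit). With the replicate number as a block, the number of calls was also 2, and the block changed no other call among members and parents. With the counts of each parent and its pseudogenes summed, the number of families called was 0, and the cause was not tested. The share of counts on the pseudogenes, 0.00978 percentage points higher in TKO, became -0.004209 without Rps3a2 and Rps3a3 and -0.001327 without Rpl3-ps1 as well, both alternatives added after the data were seen. With single libraries left out, it lay between 0.00583 and 0.0127, the median log2 fold change of the pseudogenes between -0.34 and -0.05, and that of the parents between -0.44 and -0.19. Rps3a3 then lay between 7.57 and 7.96, Rps3a2 between 3.18 and 3.41, and Rps3a1 between -1.05 and -0.85, uncalled in each. Of the values of single genes, 478 stayed, 8 moved, all of them of members with few counts, and 1, that of Rps3a1, passed the threshold without a filter on low counts. The median member had 204 counts in all, and whether a change can be detected at so few counts was not tested. Reads shared with parents limit every close copy.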
